A study of Mus musculus with 6 samples.

Results

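The Zfp genes examined here are the 250 most counted protein-coding genes whose mouse symbol is Zfp followed by a number, ranked by the sum of raw counts over all 6 liver libraries, out of 394 such genes and 53715 genes in the deposited table. They were selected on their summed raw counts alone, so their levels are a description, whereas the comparison of FR F1 with control F1 did not enter the rule. The rule and the gene lists used below were, however, set with earlier results of these data known. Just inside the limit stood Zfp953 with 104 counts and Zfp54 with 103, and just outside it Zfp563 with 103, a tie broken by symbol, and Zfp820 with 102. The livers came from 8-week-old F1 males of ICR, an outbred mouse stock, as 3 control F1 and 3 FR F1 libraries of polyadenylated RNA. The stress label of the FR F1 samples names famine of the fathers and that of the others reads control. The title of the series has an overdiet instead, and FR is not spelled out. No treatment of the F1 males themselves is labelled. Nothing in the labels ties a library to a separate animal or litter, so a p-value here is set against the spread among 6 libraries only, which may in part be technical.

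Most Zfp genes encode chains of C2H2 zinc fingers, in which paired cysteines and histidines hold a zinc ion and each finger contacts a few bases of DNA. Many chains are joined to a KRAB box, which binds the corepressor Trim28 and through it the histone methyltransferase Setdb1, so that transposable elements and imprinted regions are kept silent. KRAB zinc finger genes multiplied by duplication and lie in clusters on several chromosomes. The Zfp36 family is different, since its CCCH fingers bind AU-rich stretches of mRNA and bring about their decay.

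By a strict pattern search in the encoded proteins, a KRAB box was found in 116 of the 250 members and not found in 131. The other 3 held the CCCH fingers of the Zfp36 family. Below, members with no KRAB box are those in which this pattern found none, which does not show that the box is absent. With 1 place allowed to differ, the 2 numbers were 130 and 117. KRAB members had a median of 12 C2H2 fingers and members with no KRAB box a median of 7. The stretches below show what the rule gathers under 1 name. They code for the first finger that runs straight into the short linker to the next finger in 4 C2H2 members and for the first CCCH finger of the Zfp36 family, read 5′ to 3′ on the coding strand of mm10. Each lies within the last exon of the gene's chosen transcript, and the capitals mark the codons of the 4 zinc-binding cysteines and histidines.
Zfp942, chr17:21929017-21929094, minus strand: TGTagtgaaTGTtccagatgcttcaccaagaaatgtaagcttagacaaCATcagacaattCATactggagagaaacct
Zfp946, chr17:22454996-22455073, plus strand: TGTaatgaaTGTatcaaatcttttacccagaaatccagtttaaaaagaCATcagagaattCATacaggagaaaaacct
Zfp101, chr17:33381626-33381703, minus strand: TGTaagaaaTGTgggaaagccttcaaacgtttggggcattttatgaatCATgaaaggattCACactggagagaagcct
Zfp771, chr7:127253856-127253933, plus strand: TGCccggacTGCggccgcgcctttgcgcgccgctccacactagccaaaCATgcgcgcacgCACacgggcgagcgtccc
Zfp36, chr7:28378158-28378217, minus strand: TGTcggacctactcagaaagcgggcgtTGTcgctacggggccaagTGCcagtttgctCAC
Zfp36l1, chr12:80110189-80110248, minus strand: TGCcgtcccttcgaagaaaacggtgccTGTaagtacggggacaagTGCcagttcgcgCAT
Zfp36l2, chr17:84186668-84186727, minus strand: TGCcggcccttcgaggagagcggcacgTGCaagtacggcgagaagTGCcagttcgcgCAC
Zfp942 and Zfp946, neighbours on chromosome 17, shared 58 of 78 bases of this stretch, whereas Zfp942 and Zfp771 shared 34. The GC content of the stretch was 38.5% in Zfp942, 30.8% in Zfp946 and 41.0% in Zfp101, against 73.1% in Zfp771. Within the CCCH finger, Zfp36l1 and Zfp36l2 shared 49 of 60 bases and Zfp36 and Zfp36l1 shared 42. Base composition and sequence sharing both differed between classes. The median GC content of the longest transcript was 40.8% in KRAB members and 49.7% in members with no KRAB box. In 37 members over 10% of the 50-base words of the transcripts also occurred in another gene, and the counts of those members are uncertain, because the sources do not say how the authors' counting treated shared reads.

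Total counts per library ranged from 2279755 to 2730160, and the members held 0.781% to 0.986% of them, with a median of 359 counts per member over all libraries. Beyond counting error, replicates varied with a fitted coefficient of variation of 22.4%. Levels are given as CPM, a normalized read count relative to library size with TMM scaling factors. Control F1 replicate 3 stood apart from the other 5 libraries. Transcripts of low GC content were low in it, and in protein-coding genes other than the members with a GC content under 42% (1320 genes) the median deviation of log2(CPM + 0.5) from each gene's mean over the libraries was -0.77 in it, against -0.10 to 0.38 in the other libraries. Mitochondrial genes took 0.101% of its counts, against 0.282% to 0.352% elsewhere. The main medians, and the fold changes of some single genes, are therefore also given without it. Hepatocyte markers were present in all libraries, with a summed level of 2888 to 3284 CPM in control F1 and 2506 to 2922 CPM in FR F1. All 12 markers of sinusoidal endothelium had a positive log2 fold change (summed 478 to 737 CPM in control F1 and 849 to 1029 CPM in FR F1), as did all 11 of stellate cells and fibroblasts (349 to 570 CPM and 750 to 877 CPM), and none of either list was at 0. Their part in the results on the members was not tested. In RNA from whole liver, fewer cells of a type and less RNA per cell cannot be told apart.

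None of the 250 members passed an adjusted p of 0.05 in FR F1 against control F1 (edgeR quasi-likelihood test, Benjamini-Hochberg over 13022 genes), in a comparison that called 0.837% of all genes tested. All 250 members passed the filter on low counts. At an unadjusted p under 0.05, 22 members were higher (8.8%) and 21 lower (8.4%) in FR F1, near the 9.02% and 8.88% of all genes tested. All 3 FR F1 libraries lay above all 3 control F1 libraries in 40 members (16%, against 12.5% of all genes) and below them in 29 (11.6%, against 13.2%). DESeq2, which called 2.76% of its genes, called Zfp36l1, Zfp36l2, Zfp101 and Zfp771 higher and Zfp609 lower. The test of limma-voom, which called 0.791%, called Zfp771 alone. An edgeR fit with a GC content offset, in which each library's trend of level on transcript GC content is taken out, called 2.21% of the genes, among them Zfp36l1 and Zfp771 higher and Zfp609 lower. Without control F1 replicate 1 the edgeR test called 14 members higher and 2 lower, in a fit that called 4.83% of all genes. Without control F1 replicate 3, where 1.19% of all genes were called, the only member called was Zfp970, which was lower. On simulated counts for these genes and libraries, 29 of 100 genes changed 2-fold and 87 of 100 changed 4-fold were recovered among 13022 genes. In the same run 13 unchanged genes were called. The simulated counts held no trend on GC content and no library that stood apart. The changed genes were drawn from all genes tested, with a median level of 42.8 CPM against 23.8 CPM in the members, so recovery among the members may differ.

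The members with the smallest p-values had levels that were well apart between the groups. Zfp771, a C2H2 gene without a KRAB box at chr7:127244274-127254803, stood at 8.67, 0.901 and 3.07 CPM in control F1 replicates 1 to 3 and at 30.3, 33.5 and 46.8 CPM in FR F1 replicates 1 to 3. Every FR F1 library was above every control F1 library, and the lowest control library rested on 2 counts. The log2 fold change was 3.11 ± 0.55 (SE), with an edgeR adjusted p of 0.0534. Its transcript has the highest GC content of the 250 members, 68.7%, and the log2 fold change was 2.91 without control F1 replicate 3.

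Zfp609, a protein that works with the cohesin loader Nipbl and the Integrator complex, was at 52.5, 52.7 and 52.2 CPM in control F1 and at 29.9, 23.6 and 29.1 CPM in FR F1. The control libraries were nearly level and all above the FR F1 libraries. Its log2 fold change was -0.93 ± 0.17 (SE, edgeR adjusted p = 0.0588). The gene lies at chr9:65692391-65827564 and holds 1 finger by the pattern used.

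Zfp101, a KRAB gene of 12 fingers at chr17:33360507-33394641, was at 25.6, 21.6 and 16.5 CPM in control F1 and at 54.2, 57.1 and 37.3 CPM in FR F1. The groups did not overlap, and the log2 fold change was 1.23 ± 0.25 (SE, edgeR adjusted p = 0.0770). With the GC content offset it was 0.85.

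**Figure D1:**
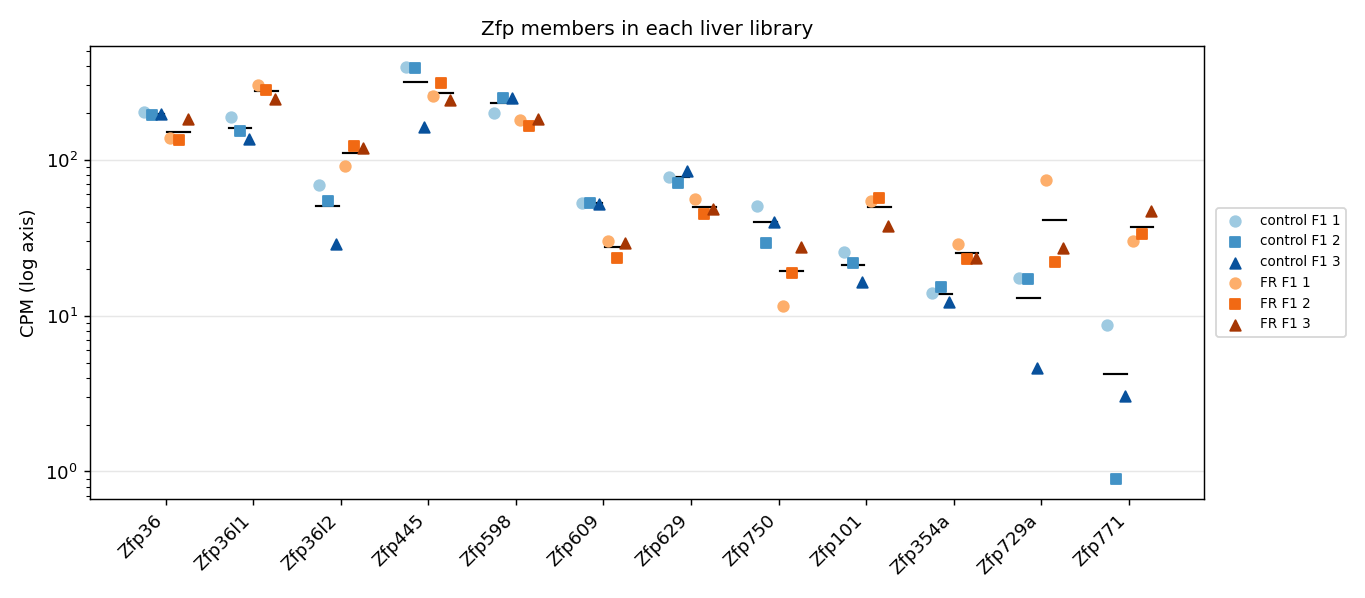
Normalized level (CPM, log axis) of 12 Zfp members in each of the 6 liver libraries, control F1 in blue and FR F1 in orange, with replicate numbers by symbol and a bar at each group's mean (n = 3). The FR F1 libraries of Zfp36l1, Zfp36l2, Zfp101 and Zfp771 lie above the control F1 libraries, those of Zfp36, Zfp598, Zfp609 and Zfp629 below, and Zfp445 is low in control F1 replicate 3.

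The 3 mRNA decay factors differed in direction. Zfp36l1 was at 188, 152 and 137 CPM in control F1 and at 302, 279 and 244 CPM in FR F1, with no overlap of the groups. Its log2 fold change was 0.79 ± 0.15 (SE, edgeR adjusted p = 0.0674). At chr12:80107754-80113013 it shares 1672 of its 2990 exonic bases with Gm26669 on the other strand. The sources do not say whether the authors' counting used strand, so reads of this pair cannot be told apart.

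Zfp36l2 was at 68.5, 54.5 and 28.8 CPM in control F1 and at 91.6, 123 and 119 CPM in FR F1 (log2 fold change 1.14 ± 0.30, SE, edgeR adjusted p = 0.128). All FR F1 libraries were above all control F1 libraries, and the log2 fold change was 0.85 without control F1 replicate 3. Zfp36 itself, also named tristetraprolin, ran the other way, at 201, 192 and 195 CPM in control F1 and 138, 135 and 182 CPM in FR F1 (-0.38 ± 0.14, SE, edgeR adjusted p = 0.235). Its FR F1 libraries were all below the control libraries, though FR F1 replicate 3 lay close to them. Summed over the family, levels were 458, 399 and 361 CPM in control F1 and 531, 537 and 545 CPM in FR F1. The sinusoidal endothelium and stellate cell marker sums given above were also higher in every FR F1 library than in any control F1 library, and their part in the Zfp36l1 and Zfp36l2 values was not tested.

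Per kilobase of exon, Zfp36l1 had the highest mean level of the members at 72.6 CPM per kb, followed by Zfp707 at 61.4, Zfp598 at 52.4, Zfp36 at 50.1, Zfp970 at 46, Zfp445 at 39.4 and Zfp706 at 33.8 CPM per kb. The median of the members was 4.80 CPM per kb. The top rank came from FR F1. In control F1, Zfp707 was at 72.9, 53.6 and 61.6 CPM per kb and Zfp36l1 at 62.9, 50.8 and 45.7, lower in each library. In FR F1, Zfp707 was at 71.5, 48.6 and 60.5 CPM per kb and Zfp36l1 at 101, 93.4 and 81.7, higher in each. Zfp970 is the least certain of these, since 49.5% of its 50-base words occur in other genes. It was at 128, 273 and 31.5 CPM in control F1 and 57.6, 58.6 and 51.3 CPM in FR F1 (log2 fold change -1.36 ± 0.61, SE, edgeR adjusted p = 0.290). The control libraries spread around the narrow range of the FR F1 libraries, so the groups overlapped. No member exceeded 0.386 counts per base of its longest transcript in any library.

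KRAB members as a class had a median log2 fold change of 0.44, with 86 of 116 positive, against 0.00 and 50.4% positive over all protein-coding genes tested. At an unadjusted p under 0.05, 12 were higher (10.3%, near the 9.02% of all genes) and 3 lower (2.59%, against 8.88%). Members with no KRAB box had a median of -0.03, with 64 of 131 positive, 8 higher (6.11%) and 17 lower (13%). With 1 place of the box allowed to differ, the medians of the 2 classes were 0.40 and -0.03. The summed level of the KRAB members was 3115, 2940 and 1718 CPM in control F1 and 3269, 3151 and 2702 CPM in FR F1. Control F1 replicates 1 and 2 lay inside the FR F1 range and replicate 3 far below it, and that library was the lowest of the 6 in 77 of the 116 KRAB members. Without it the KRAB median was 0.20, and with the GC content offset it was 0.10. In members with no KRAB box these medians were -0.009 and -0.10, and over all protein-coding genes tested -0.0003 and -0.05.

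The medians also differed by GC content. Among members with a transcript GC content under 42%, the median log2 fold change was 0.75 in 69 KRAB members and 0.64 in 26 members with no KRAB box. Other protein-coding genes under 42% had a median of 0.41. These 3 medians were 0.39, 0.27 and 0.16 without control F1 replicate 3 and 0.26, 0.08 and -0.04 with the GC content offset. At 42% or more, the median was -0.05 in 47 KRAB members, -0.15 in 105 members with no KRAB box and -0.04 in the other protein-coding genes. With the offset these were -0.11, -0.13 and -0.06. In the lowest GC bin, under 38%, the 25 members had a median of 0.90 and 208 other protein-coding genes one of 0.60. In the main edgeR fit the medians of members with and without a KRAB box thus lay within 0.111 log2 units of each other in each GC range. With the offset they lay further apart under 42%, and the difference was not tested.

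**Figure D2:**
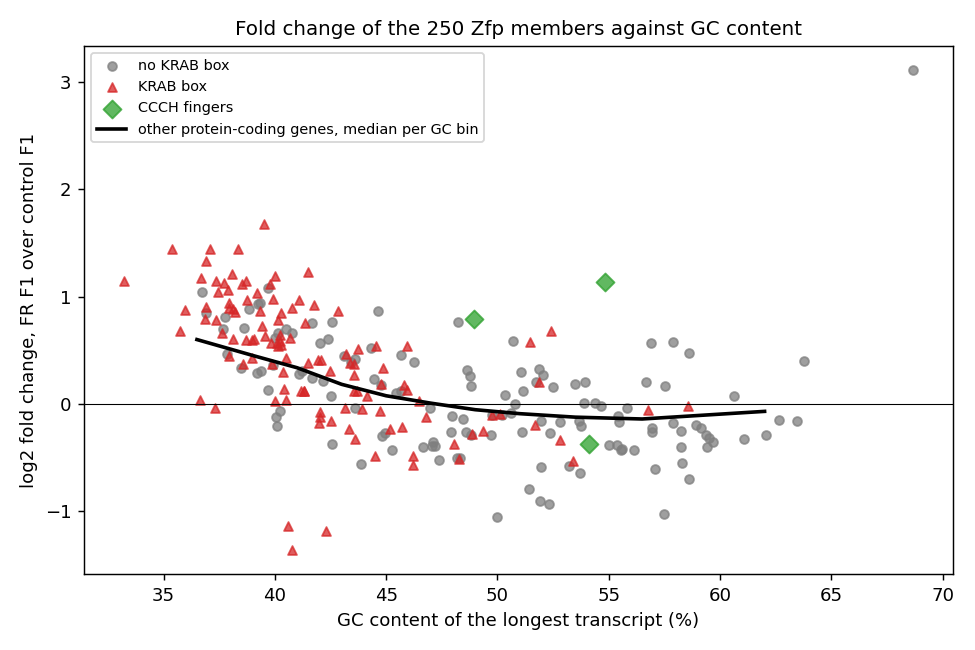
The log2 fold change of FR F1 over control F1 for each of the 250 members against the GC content of its longest transcript, with KRAB members as triangles, members with no KRAB box as circles and CCCH members as diamonds; the line joins the medians of other protein-coding genes in 11 GC bins, drawn at the bin centres. Members of low GC content lie mostly above 0, as the line does, and Zfp771 stands alone at the upper right.

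Library by library, the KRAB members under 42% GC deviated from their means by a median of 0.32, -0.13 and -1.48 log2 units in control F1 replicates 1 to 3 and by 0.51, 0.61 and 0.22 in FR F1 replicates 1 to 3. The members with no KRAB box under 42% GC deviated by 0.22, -0.07 and -1.08 in control F1 and by 0.34, 0.49 and 0.15 in FR F1. Other protein-coding genes of that composition kept the same order of libraries over a narrower range, from -0.77 in control F1 replicate 3 to 0.38 in FR F1 replicate 2. In each of these classes, the FR F1 libraries thus lay at or near the level of control F1 replicate 1, and control F1 replicate 3 was the lowest.

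**Figure D3:**
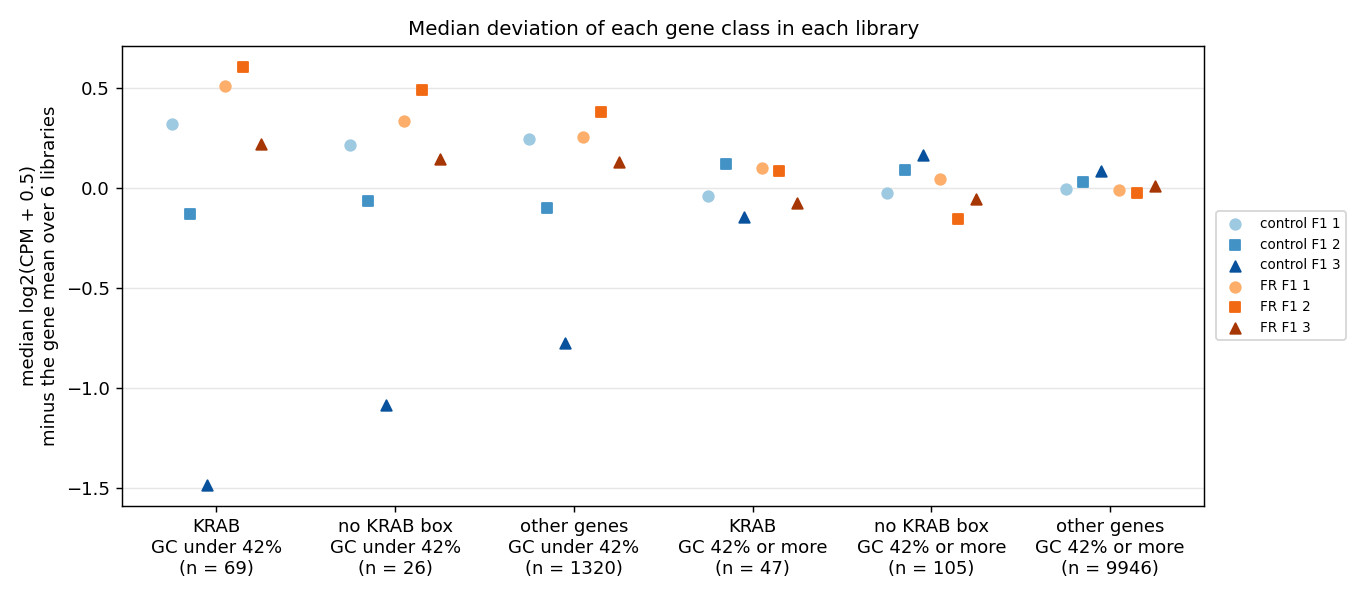
Median over genes of the deviation of log2(CPM + 0.5) from the gene's mean over 6 libraries, for KRAB members, members with no KRAB box and other protein-coding genes, split at a transcript GC content of 42%; each point is 1 library. Control F1 replicate 3 is the lowest library in the 3 low-GC classes, at -1.48, -1.08 and -0.77, and the spread is small in the high-GC classes.

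The KRAB gene with the most counts of all members was Zfp445, which together with Zfp57 maintains imprints. It was at 396, 387 and 163 CPM in control F1 and at 255, 309 and 242 CPM in FR F1 (log2 fold change -0.23 ± 0.30, SE, edgeR adjusted p = 0.699). The FR F1 libraries lay between control F1 replicate 3 and the other control libraries, and the log2 fold change was -0.55 without replicate 3, -0.03 without replicate 1 and -0.43 with the GC content offset. With that offset and without replicate 3 it was -0.67, and Zfp445 was called lower in a fit that called 216 genes in all. Zfp57 ranked 278 by counts, outside the 250, at 2.60, 4.51 and 2.69 CPM in control F1 and 3.37, 5.90 and 6.98 CPM in FR F1. Zfp809, which silences retroviral copies, was at 76.3, 114 and 41.0 CPM against 75.2, 78.5 and 41.9 CPM, and these ranges overlapped almost wholly. Zfp932 and Zfp568, which silence endogenous retroviruses and a placental Igf2 transcript, had log2 fold changes of 0.78 ± 0.52 and -0.35 ± 0.20 (SE), with edgeR adjusted p of 0.448 and 0.377. For Zfp932 the log2 fold change was 0.31 without control F1 replicate 3 and 0.27 with the GC content offset. By the strict pattern Zfp568 is counted among the members with no KRAB box, since 1 of the 8 places of its box differs.

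Among other KRAB members outside the cluster described next, Zfp354a, a repressor first found in kidney, was at 13.9, 15.3 and 12.3 CPM in control F1 and 28.8, 23.2 and 23.4 CPM in FR F1. The groups did not overlap (log2 fold change 0.86 ± 0.23, SE, edgeR adjusted p = 0.132). Zfp729a was at 17.3, 17.1 and 4.6 CPM against 74.4, 22.1 and 27.1 CPM, with FR F1 replicate 1 the highest. Its log2 fold change was 1.67 ± 0.59 (SE), and 0.93 without that library. It was 1.25 without control F1 replicate 3 and 1.24 with the GC content offset. The lower KRAB members included Zfp872, at 13.9, 15.8 and 11.9 CPM against 6.73, 9.21 and 2.05 CPM, and Zfp169, at 7.81, 7.66 and 14.2 CPM against 4.49, 3.32 and 5.75 CPM. In both, all control libraries were above all FR F1 libraries, with edgeR adjusted p of 0.241 and 0.204. For Zfp169 the log2 fold change was -1.14, and it was -0.78 without control F1 replicate 3 and -1.70 with the GC content offset.

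Members with roles in RNA and ribosomes were counted from a fixed list of 10, of which none passed the test. At an unadjusted p under 0.05, 2 were higher and 2 lower, where 9.02% and 8.88% of all genes were. Zfp598, the ubiquitin ligase that marks collided ribosomes, was at 200, 248 and 248 CPM in control F1 and 180, 165 and 183 CPM in FR F1, with the groups apart (log2 fold change -0.40 ± 0.13, SE, edgeR adjusted p = 0.181). Zfp106, an RNA-binding protein, was at 170, 174 and 157 CPM against 121, 136 and 126 CPM (-0.39 ± 0.12, edgeR adjusted p = 0.170). Of its 10429 exonic bases, 2719 are shared with Gm26899 on the other strand. Zfp622, a factor of large ribosomal subunit assembly, was higher, at 50.3, 46.9 and 43.0 CPM against 58, 60.8 and 68.5 CPM. Its log2 fold change was 0.42 ± 0.16 (SE, edgeR adjusted p = 0.225), and 0.19 with the GC content offset. Zfp326, of the complex that couples splicing to elongation, was at 31.2, 19.4 and 19.9 CPM against 43.0, 38.7 and 33.2 CPM, and its log2 fold change of 0.71 was 0.10 with the GC content offset. Zfp207, a spindle factor, was at 203, 183 and 135 CPM against 197, 231 and 187 CPM, with overlap.

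Of 8 promoter-binding factors, none had an unadjusted p under 0.05, and their median log2 fold change was 0.01. Of 7 fat cell and metabolism genes that were found, 5 were tested and none had an unadjusted p under 0.05. Zfp638, a cofactor in fat cell formation, was at 89.3, 66.7 and 19.2 CPM in control F1 and at 103, 95.4 and 77.1 CPM in FR F1. Its wide control range overlapped the FR F1 range. Of the NET family, Zfp703 was a member, and Zfp503 ranked 273, outside the 250. Among all 394 matching genes, Zfp503 was the only one past the test, at 1.3, 1.80 and 1.15 CPM in control F1 and at 6.73, 7 and 9.44 CPM in FR F1 (2.41 ± 0.41, SE, edgeR adjusted p = 0.0456).

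Other members with no KRAB box that were well apart included Zfp236, at 59.4, 78.9 and 78.2 CPM in control F1 and 112, 99.5 and 115 CPM in FR F1 (log2 fold change 0.59 ± 0.16, SE, edgeR adjusted p = 0.139). Zfp652, a repressor, was at 70.2, 82.9 and 72.9 CPM against 100.2, 96.9 and 99.3 CPM. Both had the FR F1 libraries above the control libraries. In the other direction, Zfp750, known from epidermal differentiation, was at 50.3, 29.3 and 39.9 CPM against 11.6, 18.8 and 27.5 CPM (-1.05 ± 0.34, SE, edgeR adjusted p = 0.182). Zfp523, a relative of Zfp143 that acts at small nuclear RNA promoters, was at 84.1, 123 and 128 CPM against 83.4, 65.6 and 73.9 CPM, where the highest FR F1 library came within 1 CPM of the lowest control library.

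The members lay on 20 chromosomes, with 58 on chromosome 7, 32 on chromosome 17 and 20 on chromosome 13. Clusters were runs of Zfp genes whose starts lay within 500 kb of the next and that held at least 5 members. There were 13 of them, and they held 103 of the 250 members. Median log2 fold changes ran from 0.97 in the Zfp945 cluster of chromosome 17 through 0.69 in the Zfp729a cluster of chromosome 13 and 0.57 in the Zfp266 cluster of chromosome 9 down to -0.34 in the Zfp629 cluster of chromosome 7. Without control F1 replicate 3 these 4 medians were 0.55, 0.40, 0.26 and -0.18. The clusters at the top had transcripts of low GC content, with medians of 38.2%, 39.3% and 40.3%, against 53.2% in the Zfp629 cluster.

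**Figure D4:**
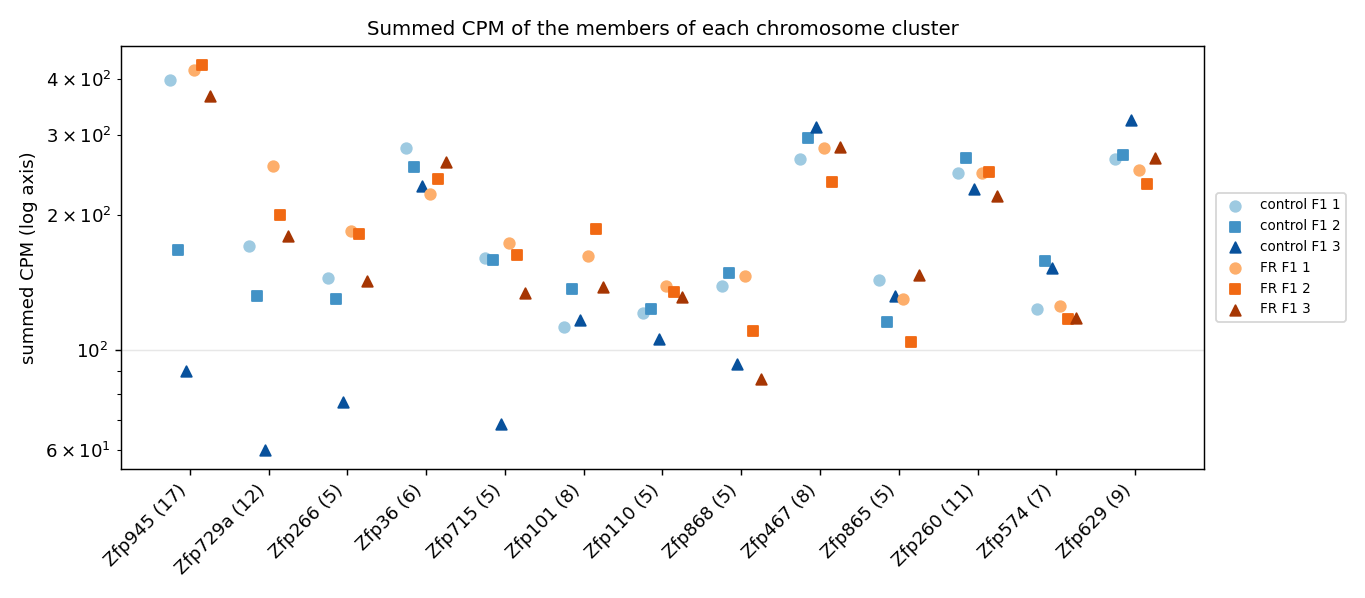
Summed CPM of the members of each of the 13 chromosome clusters in each library, on a log axis, ordered by median log2 fold change from left (Zfp945 cluster) to right (Zfp629 cluster), with the number of members in parentheses. In the Zfp945 cluster, control F1 replicate 1 lies at the level of the FR F1 libraries while control F1 replicates 2 and 3 lie far below.

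The Zfp945 cluster spans chr17:21008903-23599487 and holds 23 Zfp genes, 17 of them members and 16 of those with a KRAB box. Its members summed to 398, 167 and 89.8 CPM in control F1 and to 418, 430 and 367 CPM in FR F1. Control F1 replicate 1 thus stood within the FR F1 range, and control F1 replicates 2 and 3 below it. In 14 of the 17 members, control F1 replicate 1 was at least 2-fold above the mean of control F1 replicates 2 and 3, against 6.13% of all genes tested and 25% of the KRAB members. This pattern was noticed in the data, and no test was made of it. The median log2 fold change of 0.97 became 1.77 without control F1 replicate 1, 0.55 without replicate 3 and 0.50 with the GC content offset. Of the 17, 2 were higher at an unadjusted p under 0.05, Zfp229 and Zfp983 (11.8%, near the 9.02% of all genes). The exception in direction was Zfp213, the member in which the pattern found no KRAB box. It was at 21.7, 19.8 and 26.5 CPM in control F1 and 18, 17 and 19.7 CPM in FR F1. Its transcript has a GC content of 59.5%.

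The split among the control libraries was widest in Zfp942, Zfp943, Zfp944, Zfp758 and Zfp946, which lie between positions 21926960 and 22456689 of chromosome 17 and were picked after their values were seen. Together they had 411, 66 and 52 counts in control F1 and 456, 496 and 375 in FR F1. In CPM this was 178, 29.8 and 19.9 against 171, 183 and 154, so that control F1 replicate 1 was 5.99-fold above replicate 2 and 8.94-fold above replicate 3. Zfp942 alone was at 45.5, 7.66 and 1.92 CPM in control F1 and 44.5, 39.8 and 36.5 CPM in FR F1. Zfp758 was at 15.6, 0 and 1.15 CPM against 15.7, 19.5 and 10.3 CPM. Zfp994, which lies among them, was at 22.1, 10.8 and 2.3 CPM against 23.9, 21.7 and 21.3 CPM. None of these 6 genes passed the test (edgeR adjusted p 0.316 to 0.465). Without control F1 replicate 1, in a fit that called 4.83% of all genes, the 5 passed and were higher in FR F1. Their log2 fold changes were 2.22 to 4.52 (edgeR adjusted p 0.0040 to 0.022), and Zfp994 was at 1.80 (edgeR adjusted p = 0.0864). Because the 5 were picked for the split between control F1 replicate 1 and the other controls, their passing without it was favoured by the choice. These p-values are therefore no test of the groups. None of the 6 passed without control F1 replicate 3. Markers of erythroid cells were also lower in control F1 replicates 2 and 3, with sums of 405, 179 and 188 CPM in control F1 and 409, 418 and 468 CPM in FR F1. The order of the libraries was not the same, and 3 of the 4 tested markers had a positive log2 fold change. Their part in the cluster's values was not tested.

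**Figure D5:**
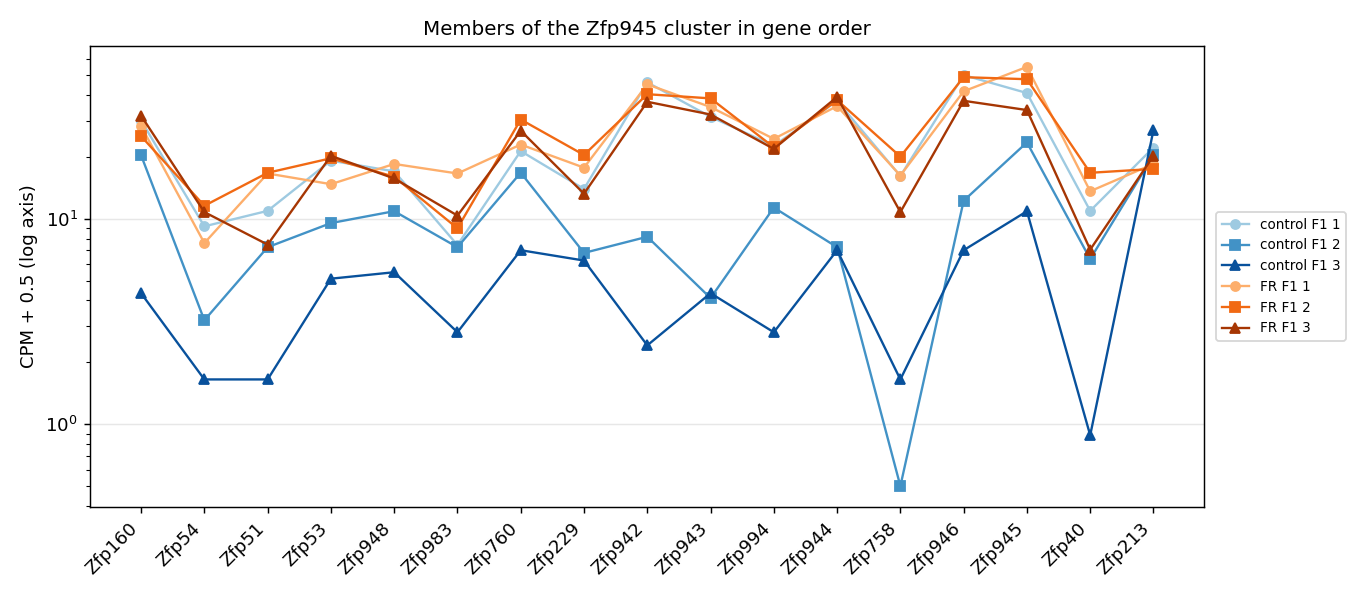
CPM + 0.5 (log axis) of the 17 members of the Zfp945 cluster in their order along chromosome 17, with 1 line per library. From Zfp942 to Zfp946 the lines of control F1 replicate 1 and of FR F1 run together, and those of control F1 replicates 2 and 3 run below them, whereas at Zfp213 all 6 lie close.

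Some of these genes share a promoter region. Zfp942 and Zfp943 start 87 bases apart and run in opposite directions, and so do Zfp944 and Zfp758, which start 52 bases apart. RefSeq promoters (GRCm38.p6, 250 bases before to 50 after the start) were matched for 15 of the 17 members. Searched on both strands, the E-box CACGTG, which reads the same on both strands, occurred in 6 of the 15. It occurred in 8.09% of 16521 protein-coding promoters and 9.90% of 101 matched KRAB promoters, these 6 included. The 6 are not independent, since each facing pair shares 1 site. The GC box GGGCGG occurred in 11 of 15 (73.3%, against 48.2%) and TATAAA in none (against 12.9%). The split between control F1 replicate 1 and the mean of the other controls was at least 2-fold in 14 of the 17 members, more than these 6. A link between the E-box and the values was not tested. The stretches of 30 bases around the E-box are shown with the E-box in capitals, each on the strand of its gene.
Zfp942, chr17:21962501-21962530, minus strand: cgttagcgctgtCACGTGaccggaaccgtg
Zfp944, chr17:22361412-22361441, minus strand: cgttagcgctgtCACGTGaccggaaccgtg
Zfp943, chr17:21962501-21962530, plus strand: cacggttccggtCACGTGacagcgctaacg
Zfp758, chr17:22361412-22361441, plus strand: cacggttccggtCACGTGacagcgctaacg
Zfp946, chr17:22424180-22424209, plus strand: tttggggggaacCACGTGaccggaaccggg
Zfp994, chr17:22225757-22225786, minus strand: gtttgggggaacCACGTGaccctaagtatg
The stretches of Zfp942 and Zfp944 matched at 30 of 30 bases, so the facing pairs are copies of each other here. Those of Zfp943 and Zfp758 are the same positions read on the other strand, so their match is not a further one. Zfp946 matched Zfp942 at 20 of 30 bases and Zfp994 at 22. Zfp994 holds the E-box too, and its level in control F1 replicate 2 was nearer to that in replicate 1 than those of Zfp942 and Zfp943 were. A match is a run of letters and not a shown binding site.

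The Zfp729a cluster at chr13:67038596-67827002 had 12 members, 11 with a KRAB box. All 12 had a positive log2 fold change, as had 94.2% of KRAB members and 85.9% of other protein-coding genes with a GC content under 42%. In 6 of the 12 the FR F1 libraries lay above all control libraries (50%, against 12.5% of all genes). That share was 27.5% in KRAB members and 22.5% in other protein-coding genes with a GC content under 42%. The summed levels were 171, 132 and 60.2 CPM in control F1 and 257, 200.1 and 180 CPM in FR F1, with no overlap. In 10 of the 12 members control F1 replicate 3 was the lowest library, and without it the cluster's median was 0.40. With the GC content offset it was 0.22. Zfp953, at the lower limit of the members, was at 6.94, 4.96 and 0 CPM in control F1 and 9.35, 10.7 and 9.44 CPM in FR F1.

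The Zfp101 cluster also lies on chromosome 17, at chr17:32765496-33631779. Its 8 members had a median log2 fold change of 0.03, with sums of 113, 137 and 117 CPM in control F1 and 162, 186 and 138 CPM in FR F1, so that every FR F1 library was above every control library, FR F1 replicate 3 narrowly. Zfp101 and Zfp81 were the members higher at an unadjusted p under 0.05 (25% of the 8, against 9.02% of all genes). Zfp81 was at 13.4, 13.1 and 4.99 CPM against 20.9, 23.2 and 20.5 CPM, with no overlap (log2 fold change 1.05 ± 0.37, SE, edgeR adjusted p = 0.209). It was 0.70 without control F1 replicate 3 and 0.44 with the GC content offset.

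The Zfp629 cluster at chr7:127233061-127885996 held members that were lower in FR F1 beside the member with the highest log2 fold change of the 250. Of its 9 members, 4 were lower at an unadjusted p under 0.05 (44.4%, against 8.88% of all genes) and 1, Zfp771, was higher (11.1%, against 9.02%). Zfp629 was at 77.6, 70.8 and 84.8 CPM in control F1 and at 55.7, 45 and 48.4 CPM in FR F1, with the groups apart (-0.65 ± 0.16, SE, edgeR adjusted p = 0.113). Zfp768 was at 64.6, 62.2 and 66 CPM against 47.5, 54.5 and 48.8 CPM. Zfp646 and Zfp668, which overlap at their 5′ ends on opposite strands and share 608 exonic bases, were at 54.2, 66.7 and 89.4 CPM against 52, 35.7 and 53.8 CPM, and at 8.67, 13.1 and 12.3 CPM against 6.73, 5.16 and 7.80 CPM. In all 4 the FR F1 libraries were below the control libraries, in Zfp646 by less than 1 CPM at the closest pair.

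The partners through which KRAB proteins silence chromatin were counted from a fixed list of 34, all of which were tested. None passed the test, and the median log2 fold change was -0.03. At an unadjusted p under 0.05, 2 were higher and 2 lower (5.88% each way, under the 9.02% and 8.88% of all genes). Trim28, the corepressor itself, was at 193, 206 and 205 CPM in control F1 and 138, 142 and 163 CPM in FR F1, with the groups apart (-0.45 ± 0.12, SE, edgeR adjusted p = 0.134). Setdb1 was at 50.3, 90.6 and 94.7 CPM against 113, 47.5 and 81.2 CPM, with wide overlap. Atrx and Fam208a had log2 fold changes of 0.90 ± 0.33 and 0.88 ± 0.34 (SE, edgeR adjusted p = 0.218 and 0.232), which were 0.59 and 0.60 without control F1 replicate 3 and 0.47 and 0.38 with the GC content offset. That of Chd3 was -0.54 ± 0.22 (edgeR adjusted p = 0.250). Without control F1 replicate 1, in a fit that called 4.83% of all genes, Atrx, Fam208a and Cbx3 passed as higher and Chd3 as lower. With all libraries the log2 fold change of Cbx3 was 0.55 ± 0.37 (SE, edgeR adjusted p = 0.452). It was 0.24 without control F1 replicate 3 and 0.06 with the GC content offset.

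In the main edgeR fit, families with similar fingers had medians nearer to 0. The median log2 fold change was 0.09 in 38 tested Zbtb genes, whose proteins carry a BTB domain in place of the KRAB box, and -0.07 in 16 tested Zscan and Zkscan genes, whose proteins carry a SCAN domain. Over the 250 Zfp members it was 0.19, with 152 positive and 98 negative, and it was 0.00 with the GC content offset and 0.10 without control F1 replicate 3. With that offset the medians of the other families were lower too, at -0.09 in the Zbtb genes and -0.10 in the Zscan and Zkscan genes. Over all genes tested the median was then -0.06. Without control F1 replicate 3 the medians of the 2 families were 0.07 and -0.14. The median transcript GC content was 49.4% in the Zbtb genes and 48.7% in the Zscan and Zkscan genes, against 44.2% in the members. No test was made of these differences between families.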

How the data were processed

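Liver RNA of 3 control F1 and 3 FR F1 samples was measured, and the group and replicate number come from each sample's title. The authors' deposited table gives raw counts for each gene in each sample. Per the submitters' processing notes, STAR, StringTie, HTSeq, DESeq2 and the build mm10 are named, with no versions or order. The strand setting and the handling of shared reads are not given in any source used. Per the labels, RNA was isolated from frozen liver with Trizol and libraries were built with an Illumina TruSeq kit that is named for DNA.

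Of 53715 gene IDs, 53620 matched GENCODE M21, which gave symbols, positions and proteins. Domain classes were searched in proteins translated from GENCODE coding sequences: a KRAB box is 8 fixed places of its core, all matched. GC content is that of the longest transcript. Promoters are from RefSeq (GRCm38.p6). The members and the gene lists were chosen with earlier results of these data known.

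The main test was that of edgeR 4.0.16 (R 4.3.3): filterByExpr (minimum count 10, minimum total 15), TMM factors, quasi-likelihood tests, two-sided, Benjamini-Hochberg over 13022 genes. CPM are over genes that passed the filter, with TMM factors. Alternatives were DESeq2 1.42.0, limma 3.58.1 (voom), other scalings, filters and thresholds, other member sets and cluster gaps, a replicate block and each library left out. A GC content offset, a trend of log2 CPM on GC content fitted per library, was added after seeing the data. Named members were those past the test, and the 8 highest and 8 lowest with an unadjusted p under 0.05 and groups apart. Also named were the 10 highest per kb, those at the limit, fixed role lists, cluster leads and some cluster members at that p. Some of these are summarised only in counts. Zfp236, Zfp652, Zfp354a, Zfp646, Zfp768, Zfp213 and Zfp994 are described outside these rules and may have been picked on their values. The block of 5 genes on chromosome 17 was chosen after seeing values. Replicates within a group differed beyond counting noise in all 6 pairs (chi-square per degree of freedom 4.01 to 13.4), and all were kept as separate replicates. The scripts were tested on simulated data.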

Additional observations from a re-analysis of the deposited data

How the results depend on the processing

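The number of members past the test was 0 in the edgeR fit and 0 with RLE factors, a mean CPM of at least 1, the replicate block or the 150 most counted members. It was 5 with DESeq2, 1 with limma-voom, 1 with upper-quartile factors and 1 with no scaling factors, which called 423, 103, 116 and 115 genes in all. It was 4 at an adjusted p under 0.1, 1 over every matching gene, and 20 with no filter on low counts, where 1251 genes were called in all. It was 3 with the GC content offset, 2 with that offset and the replicate block, and 3 with that offset and without control F1 replicate 3. These fits called 288, 180 and 216 genes in all. Leaving out 1 library gave 0 to 16 members, the highest without control F1 replicate 1, which called 651 genes. Of the silencing partners, 3 passed with no filter and, with 1 library left out, 0 to 4, the highest again without control F1 replicate 1. The median log2 fold change of the members was 0.00066 with the GC content offset, 0.017 with the block added and -0.015 with the offset and without control F1 replicate 3. Over all genes tested the same medians were -0.058, -0.053 and -0.069. That of members with no KRAB box ranged from -0.072 to 0.061 over the libraries left out. Of 884 values of 52 named members under the alternatives, 9 reversed, all in members far from the threshold: Zfp707 (-0.19 to 0.074 over the libraries left out), Zfp868 (-1.30 to 0.050), Zfp809 (-0.54 to 0.15) and Zfp207 (-0.12 with the GC content offset, -0.12 with the block added and -0.077 with the offset and without control F1 replicate 3). The values without control F1 replicate 1 were 0.063 for Zfp707 and 0.0495 for Zfp868. The causes were not tested. Libraries with the same replicate number deviated from their group means with correlations of -0.0173, 0.108 and 0.153, and not every library correlated best with its own number, so the numbers were not taken as pairs. The replicate block lowered the calls over all genes from 109 to 21. Depth limits the members near the lower limit, which rest on about 100 counts over 6 libraries.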
